A study of Homo sapiens with 12 samples.

Results

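The genes described here are 10 genes of fatty acid synthesis that lie under the transcription factor SREBP1. They are SREBF1, ACLY, ACSS2, ME1, ACACA, FASN, ELOVL6, SCD, FADS1 and FADS2, taken by gene name from a table of 25733 genes. All 10 were found once each, and all 10 passed the filter of a mean of at least 1 FPKM over the 12 libraries, which left 12341 genes for testing. FPKM is the number of reads on a gene scaled by the length of its exons and by a total for the library. The totals that the deposited values imply are not the reads on genes, being 1.02 to 1.03 times these in replicates 1 and 2 and 0.964 to 0.969 times in replicate 3. How they were set is not stated, so differences between replicate 3 and the others depend on this scaling.

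The RNA came from HCT116, a human line of colorectal cancer, and made up 4 groups with 3 libraries in each. HCT116 is known for carrying an inactivating mutation of TGFBR2, the type II receptor for TGF-β, which limits the line as a model of the response to TGF-β. The groups were cells with no treatment (control), cells given TGF-β, cells given NH4Cl as a source of ammonia, and cells given NH4Cl with TGF-β. Per the study's methods the dose of NH4Cl was 10 mM over 24 h, and TGF-β at 200 pM was added for the last 1 h, after 23 h with NH4Cl or vehicle. No source says that the replicates came from separate cultures, so p-values measure the spread between these libraries, which may be technical. The reads recovered on genes ranged from 14807630 to 18191998 per library. Among the 10 genes the fewest reads in a library were 622, for ME1, which gives a counting error of 4.01%, and the most were 45469, for SCD.

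SREBP1 is made as a precursor held in the endoplasmic reticulum by SCAP and the INSIG proteins. When sterols or certain fatty acids are low, SCAP carries it to the Golgi, where proteases release the part that enters the nucleus and activates genes of lipid synthesis. ACLY and ACSS2 make acetyl-CoA, and ME1 supplies NADPH. ACACA makes malonyl-CoA, and FASN builds palmitate from it. ELOVL6 lengthens palmitate, SCD makes monounsaturated fatty acids, and FADS1 and FADS2 make polyunsaturated fatty acids. Tumor cells, those of the colon included, often make their own fatty acids in this way.

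The cells carried the markers of colorectal epithelium. All 6 such markers (EPCAM, CDH1, KRT8, KRT18, KRT19 and VIL1) had a mean of at least 1 FPKM, and their summed level was 2267 to 3410.5 FPKM, with KRT8 and KRT18 the most abundant. Of 5 fibroblast markers 1 reached that mean, COL1A1, and the summed level was at most 2.97 FPKM. Of 3 endothelial markers 1 reached it, VWF, and the sum was at most 6.84 FPKM, with PECAM1 at no more than 0.0911 and CDH5 at no more than 0.355. The listed markers of leukocytes (2 of 4), adipocytes (2 of 4) and hepatocytes (2 of 3) were all under that mean, with CD3E, LPL and ALB the most abundant.

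Replicate 3 of every group stood apart from replicates 1 and 2. The mitochondrial share of reads was 4.50% to 5.12% in replicate 3, beside 2.46% to 3.18% in replicates 1 and 2. Libraries with the same replicate number deviated together from their group means. An offset of replicate 3 is enough to give this, since it puts replicates 1 and 2 of each group on the same side of their mean. Differently numbered libraries were not compared, so whether 1 pairs with 1 and 2 with 2 was not tested. Each comparison is therefore given without and with the replicate number as a block in the model, and the counts are given again for replicates 1 and 2 alone.

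The sequence at the transcript start is shown for ACSS2, SCD and SREBF1, which had the largest changes of the 10 with NH4Cl over both TGF-β levels, and for ACLY, and these were picked after their values were seen. RefSeq promoter windows on GRCh38.p14 each ran from 250 bases before a transcript start to 50 after it. There were 14 windows for 9 of the 10 genes and none for FASN, which the motif counts therefore do not cover. Both strands were searched for 4 motifs, of which no 2 different ones overlapped in these windows. The SREBP motif, searched as TCACNCCAC, was in 0 of the 14 windows and in 1.13% of all 35116 windows. The E-box CACGTG, which SREBP1 can also bind, was in 0 of the 14 and in 7.26% of all. The NF-Y motif CCAAT was in 7 of the 14 windows, those of ACLY, ACSS2, ACACA, SCD and FADS2, and in 34.6% of all. Windows of 1 gene can overlap, and the 2 of ACLY share the same CCAAT matches, which are thus counted in both. The Sp1 motif GGGCGG was in 12 of the 14, at least 1 window of each of the 9 genes, and in 45% of all. NF-Y and Sp1 are known partners of SREBP1 at promoters. A match describes the letters alone, and the absence of one says only that these letters are not in this window. Capitals mark every match of CCAAT or GGGCGG, or of their reverse complements ATTGG and CCGCCC, and each sequence runs 5′ to 3′ on the strand of its gene.
SREBF1 chr17:17836937-17837236, minus strand: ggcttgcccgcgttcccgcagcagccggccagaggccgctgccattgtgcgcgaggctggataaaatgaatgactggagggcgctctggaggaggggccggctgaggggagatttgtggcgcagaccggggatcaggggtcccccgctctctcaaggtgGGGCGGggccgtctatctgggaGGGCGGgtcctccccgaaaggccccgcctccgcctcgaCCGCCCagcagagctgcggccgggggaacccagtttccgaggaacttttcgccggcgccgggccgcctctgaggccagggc
ACLY chr17:41918973-41919272, minus strand: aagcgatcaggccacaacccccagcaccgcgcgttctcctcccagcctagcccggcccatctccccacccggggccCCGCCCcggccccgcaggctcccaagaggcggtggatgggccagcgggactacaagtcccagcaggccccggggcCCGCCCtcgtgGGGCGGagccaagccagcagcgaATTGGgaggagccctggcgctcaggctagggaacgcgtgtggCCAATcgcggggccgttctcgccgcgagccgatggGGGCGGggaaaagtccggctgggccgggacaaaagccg
ACSS2 chr20:34874739-34875038, plus strand: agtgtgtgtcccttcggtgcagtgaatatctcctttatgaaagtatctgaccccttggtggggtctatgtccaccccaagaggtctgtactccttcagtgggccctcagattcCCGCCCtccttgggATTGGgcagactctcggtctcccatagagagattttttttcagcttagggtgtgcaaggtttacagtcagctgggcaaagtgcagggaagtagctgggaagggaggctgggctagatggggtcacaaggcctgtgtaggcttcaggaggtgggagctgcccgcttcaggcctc
ACSS2 chr20:34876362-34876661, plus strand: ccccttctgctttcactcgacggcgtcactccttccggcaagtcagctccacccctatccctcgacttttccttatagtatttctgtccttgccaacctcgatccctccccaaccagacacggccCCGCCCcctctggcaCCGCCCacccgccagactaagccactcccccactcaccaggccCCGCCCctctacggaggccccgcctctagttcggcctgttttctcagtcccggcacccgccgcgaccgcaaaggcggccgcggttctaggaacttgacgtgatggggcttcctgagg
SCD chr10:100346983-100347282, plus strand: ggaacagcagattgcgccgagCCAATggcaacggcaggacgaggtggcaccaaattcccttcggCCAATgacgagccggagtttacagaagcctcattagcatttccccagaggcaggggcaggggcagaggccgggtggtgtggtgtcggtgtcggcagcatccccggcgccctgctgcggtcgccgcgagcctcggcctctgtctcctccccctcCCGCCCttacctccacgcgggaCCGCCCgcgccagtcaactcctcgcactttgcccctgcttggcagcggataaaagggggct
SCD held 2 CCAAT matches at 229 and 186 bases before its start, and ACLY held 2 at 65 and 23 bases before the start of the window shown. In the other ACLY window, not shown, they lie 136 and 94 bases before the start. SREBF1 held 3 GGGCGG matches and no CCAAT. The upstream ACSS2 window held 1 CCAAT and 1 GGGCGG match, and the downstream one held 3 GGGCGG matches.

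The levels of the 10 genes spanned a wide range, and as FPKM is per length they can be set beside each other. SCD had the highest mean over the 12 libraries, 361 FPKM, followed by FASN at 202, ACLY at 76.5, ACSS2 at 57.3 and SREBF1 at 38.9. FADS1 had a mean of 25.1 FPKM, ME1 of 14.3, ACACA of 11.6, ELOVL6 of 9.32 and FADS2 of 5.96. Over all libraries the ranges of ACSS2 (28.1 to 117 FPKM) and ACLY (61.6 to 90.3) overlapped, and so did those of ACSS2 and SREBF1 (31.7 to 51.3), of ME1 and ACACA, and of ACACA and ELOVL6. The other neighbors in this order did not overlap.

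**Figure D1:**
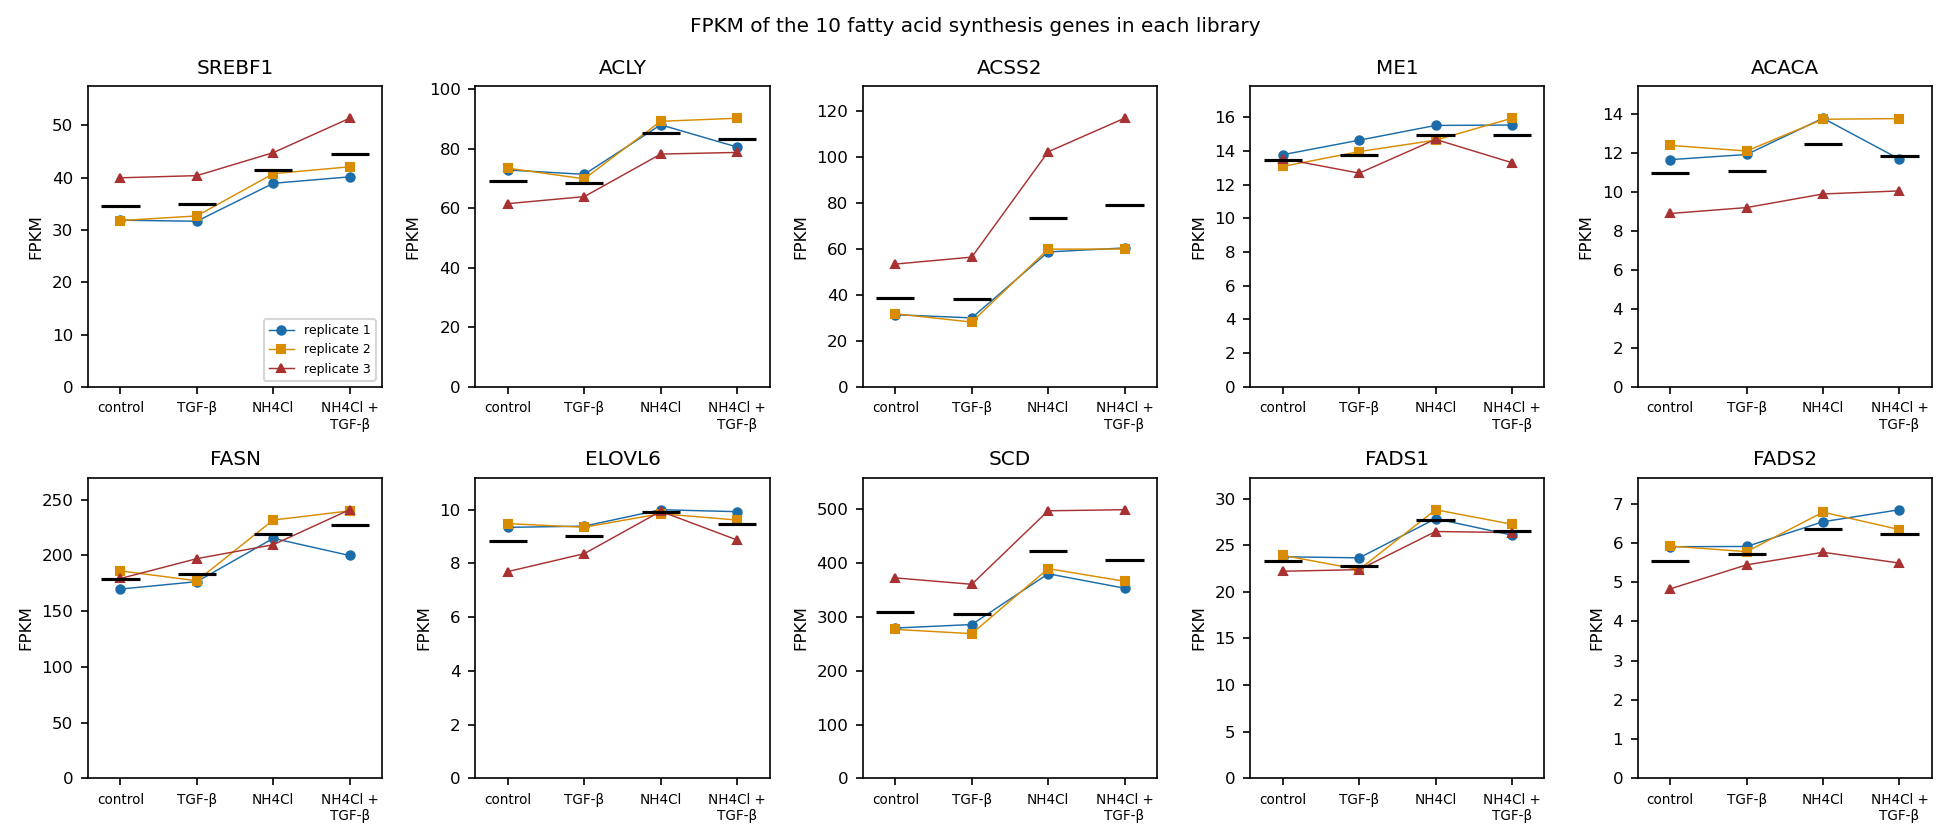
FPKM of each of the 10 genes (vertical axes, from 0) in the 4 groups, with 1 point per library, thin lines joining libraries of the same replicate number and black bars at the group means. ACSS2 was at 31.3, 31.7 and 53.3 FPKM in control libraries and at 58.6, 59.8 and 102 with NH4Cl, with replicate 3 the highest in each group.

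NH4Cl against control asks what ammonia does to these genes in cells without added TGF-β. Each of the 10 genes was higher with NH4Cl in 3 of 3 same-numbered pairs, as were 26.4% of all genes tested. In 7 of the 10 the groups did not overlap, against 9.58% of genes with all NH4Cl libraries higher. The median log2 fold change was 0.25 for the 10 genes and 8.41e-05 for all genes tested, on the log2(FPKM + 1) scale that is used for every fold change here. In limma without the block 0 of the 10 were called higher at an adjusted p of 0.05, against 0.267% of genes, while 5 of the 10 were higher at an unadjusted p under 0.05, against 6.03%. With the replicate block limma called 7 of the 10 higher, against 7.42% of genes, and with replicates 1 and 2 alone 5 of the 10, against 5.54%. In bulk RNA a rise in the share of cells that express a gene and a rise per cell cannot be told apart.

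SREBF1 (ENSG00000072310, chr17:17810399-17837002 on GRCh38, minus strand) encodes SREBP1 itself. It was at 31.9, 31.8 and 40.0 FPKM in control libraries and at 38.9, 40.8 and 44.8 FPKM with NH4Cl, 34.5 ± 4.70 against 41.5 ± 3.00 (SD, n = 3). Replicate 3 was the highest in both groups, and control replicate 3 lay above NH4Cl replicate 1, so the groups overlapped. The log2 fold change was 0.26 (SE 0.13), with a limma adjusted p of 0.496 without the block and 0.00297 with it. A part of its exons, 6.92% of their length, overlaps RAI1 on the other strand, and whether reads were counted by strand is not stated.

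Of the genes that supply acetyl-CoA and NADPH, ACSS2 (ENSG00000131069, chr20:34872146-34927962, plus strand), which makes acetyl-CoA from acetate, changed most of all 10. Its FPKM was 31.3, 31.7 and 53.3 in control libraries and 58.6, 59.8 and 102 with NH4Cl. Every NH4Cl library lay above every control library, and the ratio of same-numbered libraries was 1.87, 1.88 and 1.91. The log2 fold change was 0.90 (SE 0.35 without the block, 0.050 with it), with a limma adjusted p of 0.367 without the block and 2.09e-05 with it.

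ACLY (ENSG00000131473, chr17:41866908-41930542, minus strand) cuts citrate to acetyl-CoA in the cytosol. It was at 72.9, 73.5 and 61.6 FPKM in control libraries and at 88.1, 89.2 and 78.2 with NH4Cl. The groups did not overlap, and replicate 3 was the lowest in each. The log2 fold change was 0.30 (SE 0.088), with a limma adjusted p of 0.201 without the block and 0.00226 with it. An antisense gene, AC125257.2, covers 2.99% of its exon length. ME1 (ENSG00000065833, chr6:83210389-83431071, minus strand), malic enzyme, was at 13.8, 13.1 and 13.6 FPKM in control libraries and at 15.5, 14.7 and 14.7 with NH4Cl. These did not overlap either, but the log2 fold change of 0.14 (SE 0.074) had a limma adjusted p of 0.551 without the block and 0.114 with it.

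In palmitate synthesis, FASN (ENSG00000169710, chr17:82078333-82098332, minus strand) was at 170, 186 and 179 FPKM in control libraries and at 215, 232 and 209 with NH4Cl, 178 ± 8.17 against 219 ± 11.5 (SD, n = 3). The groups did not overlap. The log2 fold change of FASN was 0.29 (SE 0.084), with a limma adjusted p of 0.182 without the block and 0.0121 with it. That call was lost with the block when control replicate 3, NH4Cl replicate 1 or NH4Cl replicate 2 was left out, at adjusted p of 0.0519, 0.0577 and 0.0619. ACACA (ENSG00000278540, chr17:37084988-37406818, minus strand), acetyl-CoA carboxylase, was at 11.7, 12.4 and 8.89 FPKM in control libraries and at 13.8, 13.7 and 9.89 with NH4Cl. Its replicate 3 was the lowest in both groups, and the groups overlapped. The log2 fold change of 0.17 (SE 0.17) missed the threshold without the block (limma adjusted p of 0.827) and with it (0.0522).

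SCD (ENSG00000099194, chr10:100347124-100364834, plus strand), the stearoyl-CoA desaturase, was at 279, 277 and 373 FPKM in control libraries and at 380, 390 and 497 with NH4Cl. Control replicate 3 lay just under NH4Cl replicate 1, so the groups did not overlap. SCD had the largest change of the 10 after ACSS2, with a log2 fold change of 0.45 (SE 0.18 without the block, 0.037 with it), with a limma adjusted p of 0.364 without the block and 0.000131 with it. ELOVL6 (ENSG00000170522, chr4:110045846-110199199, minus strand) was at 9.34, 9.48 and 7.69 FPKM in control libraries and at 9.996, 9.85 and 9.94 with NH4Cl. Its log2 difference was 0.33 between the libraries of replicate 3 but 0.089 and 0.050 between the others, and it passed the test neither without the block nor with it (limma adjusted p of 0.522 and 0.0768).

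FADS1 (ENSG00000149485, chr11:61799625-61829318, minus strand) was at 23.8, 23.9 and 22.2 FPKM in control libraries and at 27.8, 28.8 and 26.5 with NH4Cl, with no overlap. Its log2 fold change was 0.24 (SE 0.053), with a limma adjusted p of 0.0916 without the block, the lowest of the 10, and 0.00324 with it. FADS2 (ENSG00000134824, chr11:61792980-61867354, plus strand) was at 5.90, 5.92 and 4.83 FPKM in control libraries and at 6.54, 6.78 and 5.76 with NH4Cl, and here the groups overlapped. Its log2 fold change of 0.17 (SE 0.094) had a limma adjusted p of 0.572 without the block and 0.0468 with it, and with the block that call was lost when any of 10 of the 12 libraries was left out, at adjusted p of 0.0540 to 0.173. FADS1 and FADS2 lie on opposite strands with overlapping exons, 5.57% and 4.89% of their exon lengths overlapping other genes, and reads there can be told apart only if they were counted by strand.

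The replicates shifted these genes in 2 directions. In all 4 groups replicate 3 lay above the mean of replicates 1 and 2 for ACSS2 (by 0.74 to 0.95 on the log2 scale), SCD (0.37 to 0.47) and SREBF1 (0.17 to 0.32). In all 4 it lay below for ACACA (-0.44 to -0.31), ACLY (-0.25 to -0.11), FADS2 (-0.25 to -0.088) and FADS1 (-0.098 to -0.016). FASN, ME1 and ELOVL6 had both signs. These shifts depended on the scaling, since the median shift of all genes in replicate 3 was -0.0075 to 0.00022 with FPKM and -0.16 to -0.14 with TPM, and SREBF1 then ranged from -0.016, in the NH4Cl group, to 0.17. With TPM the shift was still above 0 in all 4 groups for ACSS2 (0.56 to 0.79) and SCD (0.18 to 0.31), and below 0 in all 4 for ME1 and ELOVL6 also. With the block the standard error of the NH4Cl effect over both TGF-β levels was 7.13 times smaller for ACSS2, 4.81 times for SCD and 3.34 times for ACACA, but 1.39 times for ME1. INSIG1 and INSIG2, which hold SCAP in the endoplasmic reticulum, were also above in replicate 3 of every group, by 0.70 to 0.90 and by 1.15 to 1.22. What the replicate numbers stand for is not given in the sources used here, and its part in the levels was not tested.

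**Figure D2:**
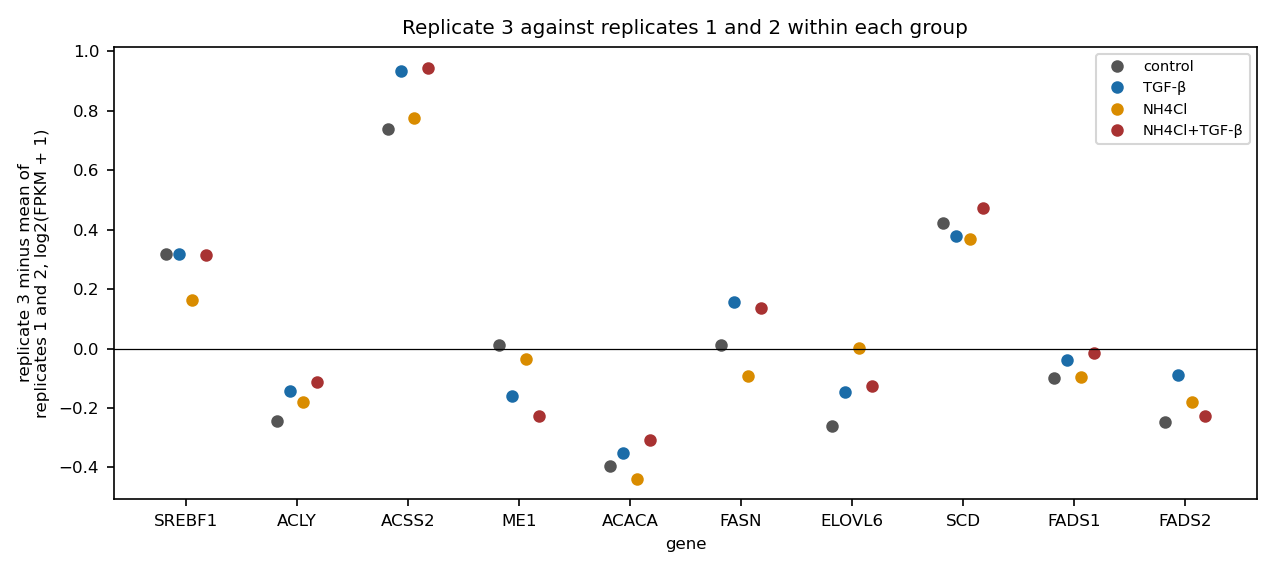
Log2(FPKM + 1) of replicate 3 minus the mean of replicates 1 and 2 (vertical axis) for each of the 10 genes (horizontal axis), with 1 point per group. All 4 points lie above 0 for ACSS2, SCD and SREBF1 (for SREBF1 in 3 groups with TPM scaling) and below 0 for ACACA, ACLY, FADS2 and FADS1.

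NH4Cl with TGF-β against TGF-β alone asks for the effect of ammonia in cells that had TGF-β. Again all 10 fold changes were above 0, with a median log2 fold change of 0.24 beside -0.000057 over all genes tested. Of the 10 genes 9 were higher in 3 of 3 same-numbered pairs, against 25.2% of genes, the exception being ACACA. In 4 of the 10, ACLY, ACSS2, FASN and FADS1, the groups did not overlap, against 8.9% of genes. In limma 0 of the 10 were called higher without the block, against 0.778% of genes, with 6 higher at an unadjusted p under 0.05, against 7.59%. With the block 6 were called higher, against 10.3% of genes, and with replicates 1 and 2 alone 5, against 8.21%. The 6 were SREBF1, ACLY, ACSS2, FASN, SCD and FADS1.

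ACSS2 was at 29.9, 28.1 and 56.3 FPKM with TGF-β and at 60.3, 59.9 and 117 FPKM with NH4Cl and TGF-β. Its log2 fold change was 1.03 (95% CI 0.92 to 1.14 with the block), with a limma adjusted p of 0.236 without the block and 1.15e-05 with it. SCD was at 286, 269 and 361 FPKM with TGF-β and at 354, 366 and 499 with both. For SCD the groups overlapped, since TGF-β replicate 3 lay above replicate 1 of the other group, and the log2 fold change was 0.41 (limma adjusted p of 0.353 without the block and 0.000215 with it). SREBF1 went from 31.7, 32.7 and 40.4 FPKM to 40.1, 42.1 and 51.3. The groups overlapped by a small margin, while the same-numbered log2 differences were close together at 0.33, 0.36 and 0.34 (limma adjusted p of 0.268 without the block and 0.000722 with it).

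FASN was at 176, 177 and 197 FPKM with TGF-β and at 200, 240 and 241 with both, with no overlap. Its log2 fold change of 0.30 had an adjusted p from limma of 0.146 without the block and 0.00815 with it. ACLY was at 71.4, 69.9 and 63.9 FPKM against 80.6, 90.3 and 78.8, and FADS1 at 23.6, 22.4 and 22.4 against 26.1, 27.3 and 26.4. Their log2 fold changes were 0.28 and 0.21. The remaining 4 genes, ME1, ACACA, ELOVL6 and FADS2, had log2 fold changes of 0.11, 0.087, 0.062 and 0.10 and were not called, with limma adjusted p of 0.176 to 0.448 with the block.

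Set against control instead, cells given NH4Cl with TGF-β had a median log2 fold change of 0.22 over the 10 genes, beside -0.0017 over all genes tested. This comparison shares its control libraries with that of NH4Cl alone and its treated libraries with the one above. All 10 fold changes were above 0, and 9 of the 10 genes were higher in 3 of 3 pairs, against 25.8% of genes, the exception being ME1. The groups did not overlap in 5 of the 10, SREBF1, ACLY, ACSS2, FASN and FADS1, against 9.19% of genes. In limma 0 were called higher without the block, against 0.705% of genes, with 5 higher at an unadjusted p under 0.05, against 7.68%. With the block 6 were called higher, against 10.7%, and with replicates 1 and 2 alone 5, against 7.65%. The log2 fold change was 0.98 for ACSS2, 0.39 for SCD, 0.36 for SREBF1, 0.34 for FASN, 0.26 for ACLY and 0.18 for FADS1, with limma adjusted p of 1.25e-05 to 0.00904 with the block.

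Over both TGF-β levels, with 6 libraries with NH4Cl and 6 without, the test of NH4Cl was the most precise. Without the block limma called 4 of the 10 genes higher, against 3.74% of all genes tested. These were FADS1 (log2 fold change of 0.23, adjusted p of 0.00757), FASN (0.30, 0.0175), ACLY (0.29, 0.0253) and ACSS2 (0.96, 0.0488). SCD (0.43) and SREBF1 (0.30) missed the threshold without the block, at limma adjusted p of 0.0745 and 0.0767. The genes called without the block depended on the scaling, since with TPM they were SREBF1, ACSS2 and SCD. In that fit 3.96% of all genes were called in either direction. Leaving out 1 library without the block gave 1 gene without TGF-β replicate 1, TGF-β replicate 2 or NH4Cl replicate 2, 2 without control replicate 1, NH4Cl replicate 1 or replicate 2 of the group given both, 3 without any of 4 others, and 6 without control replicate 3 or TGF-β replicate 3. With the block all 10 were called higher, against 16.1% of genes, from ACSS2 at an adjusted p of 4.97e-07 to ELOVL6 at 0.0478. Leaving out 1 library with the block gave 7 to 10 genes, and the call was lost for ELOVL6 in 10 of the 12 such fits, for ME1 in 8 and for ACACA in 5. For the fits that leave out 1 library the shares of all genes called are not given here, so their counts have no background. With replicates 1 and 2 alone 8 of the 10 were called higher, against 13.9% of genes, all but ACACA and ELOVL6. The order of the changes ran from 0.96 for ACSS2 through 0.43 for SCD, about 0.30 for SREBF1, FASN and ACLY and 0.23 for FADS1 to between 0.11 and 0.14 for FADS2, ACACA, ME1 and ELOVL6.

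**Figure D3:**
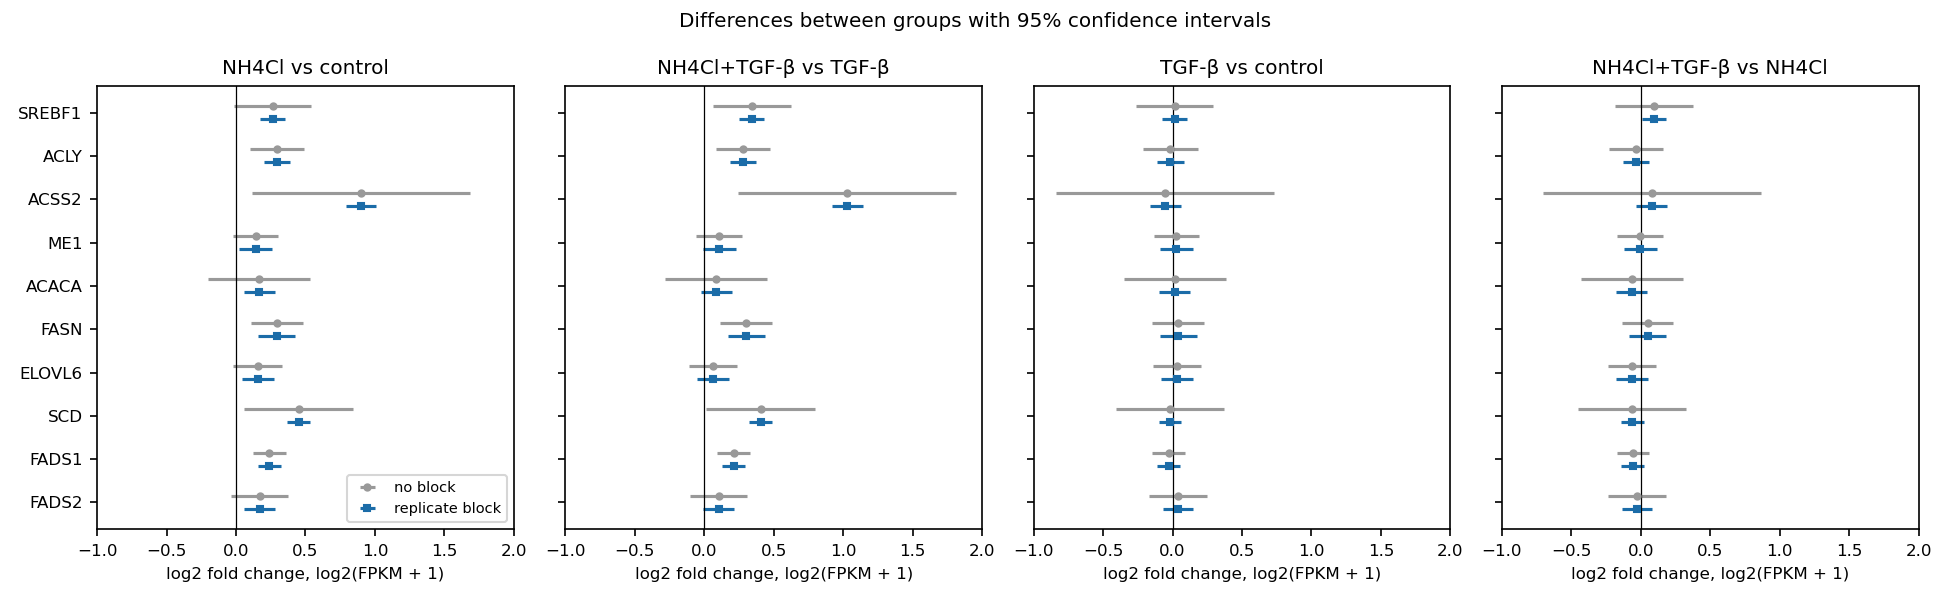
Log2 fold change on the log2(FPKM + 1) scale (horizontal axes) of the 10 genes in 4 comparisons, with 95% confidence intervals from limma without the block (gray circles) and with the replicate block (blue squares). The estimates with NH4Cl are all above 0, up to 1.03 for ACSS2, and those with TGF-β lie within 0.10 of 0.

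TGF-β against control asks whether TGF-β for 1 h moved the same genes. None of the 10 was called in limma, without the block (0% of all genes tested were called) or with it (0.0081%, 1 gene). Of the 10 genes 0 had an unadjusted p under 0.05 in either model, while 103 and 422 of all genes did. The fold changes were above 0 for 6 genes and below 0 for 4, though with replicates 1 and 2 alone for 2 and 8. The groups overlapped for each of the 10 genes. Of all genes tested only 1.83% had every TGF-β library above every control library, and 1.73% had every one below. With the block the log2 fold change was 0.015 for SREBF1 (95% CI -0.075 to 0.10), -0.051 for ACSS2 (-0.16 to 0.060), 0.040 for FASN (-0.093 to 0.17) and -0.018 for SCD (-0.10 to 0.064). For SCD, for example, changes within that interval cannot be told from 0.

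NH4Cl with TGF-β against NH4Cl alone asks the same in cells that already had ammonia. In limma 0 of the 10 genes were called without the block (0% of all genes) and 0 with it (0.0081%, 1 gene). At an unadjusted p under 0.05 there were 0 of the 10 without the block, against 1.34% of all genes, and 1 with it, against 7.12%. This was SREBF1, with a log2 fold change of 0.094 (95% CI 0.0048 to 0.18, adjusted p of 0.691). The fold changes were above 0 for 3 of the 10 genes and below 0 for 7. SREBF1 (by 0.044, 0.045 and 0.19) and ACSS2 (0.041, 0.0012 and 0.19) were higher with TGF-β in 3 of 3 pairs, against 14.3% of all genes. ELOVL6 (-0.0095, -0.032 and -0.15) and FADS1 (-0.091, -0.077 and -0.0059) were lower in 3 of 3, against 12.5%.

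The interaction tests whether the NH4Cl effect differed with TGF-β. It called 0 of the 10 genes in limma without the block (0% of all genes) and 0 with it (0%). At an unadjusted p under 0.05 there were 0 of the 10 in either model, against 0.932% of all genes without the block and 4.35% with it. With the block the interaction on the log2 scale was 0.13 for ACSS2 (95% CI -0.028 to 0.29), 0.079 for SREBF1 (-0.047 to 0.21), 0.0079 for FASN (-0.18 to 0.20) and -0.045 for SCD (-0.16 to 0.071). For ACSS2 the interval thus allows an NH4Cl effect with TGF-β that is larger by up to 0.29.

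Genes with patterns most like those of SREBF1 and FASN were ranked over the 12 libraries by Pearson r of log2(FPKM + 1) less the mean of each replicate number, as a description. For SREBF1 the closest of 12340 other genes included PLEKHH3 (r = 0.992), CEBPB (0.990), NECTIN4 (0.989) and MRPL41 (0.989). For FASN they were FAM102A (0.993), CLIP2 (0.987), FLNC (0.985), PTPRJ (0.981) and PPARA (0.977). Among the 10 genes, ACSS2 was closest to SREBF1 (r = 0.966, rank 86), then FASN (0.953, rank 173) and SCD (0.931, rank 337), while ELOVL6 was farthest (0.534, rank 3122). All points share the 12 libraries and the NH4Cl groups.

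The sterol branch of the SREBP pathway was described from a list of 23 genes of cholesterol synthesis and uptake. With NH4Cl against control its median log2 fold change was 0.28, beside 0.25 for the 10 fatty acid genes. With the block 19 of the 23 were called higher and 0 lower, against 7.42% and 6.14% of all genes tested, the shares for the other lists with the block on all 12 libraries too, and without it 2 and 0, against 0.267% and 0.113%. Without the block 13 of the 23 had an unadjusted p under 0.05 in limma, against 10.8% of all genes. Those with the largest changes were MSMO1 (0.44, limma adjusted p of 0.0116 with the block), HMGCS1, which makes HMG-CoA (0.43, 0.000396), and IDI1 (0.41, 0.00148). Without the block these were not called, at limma adjusted p of 0.544, 0.185 and 0.303. HMGCS1 was at 77.5, 78.6 and 89.9 FPKM in control libraries and at 102, 105 and 126 with NH4Cl.

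Among 20 tested genes of SREBP processing and its regulators the median was 0.015, and 5 were called higher and 0 lower in limma with the block. Without it 0 were called, with 2 of the 20 at an unadjusted p under 0.05, against 10.8% of all genes. INSIG1, itself known as a target of SREBP, rose from 49.8, 45.9 and 81.3 FPKM to 77.5, 81.0 and 129 (log2 fold change of 0.70, limma adjusted p of 7.14e-05 with the block and 0.485 without it). MLXIPL, which encodes the glucose-responsive factor ChREBP, had a log2 fold change of 0.36 and INSIG2 of 0.22 (limma adjusted p of 0.00366 and 0.0247 with the block). SREBF2, the sterol counterpart of SREBF1, had a log2 fold change over both TGF-β levels of -0.0093 (limma adjusted p of 0.810 with the block), and SCAP of -0.068 (0.182). SREBF2 and SCAP were picked out after their values were seen.

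Enzymes of fatty acid synthesis outside the 10 went in both directions, with 11 of the 15 tested above 0 with NH4Cl against control. Of 15 tested, 3 were called higher and 1 lower with NH4Cl against control with the block, at a median of 0.037. Without it limma called 0, with 3 of the 15 at an unadjusted p under 0.05, against 10.8% of all genes. With the block on replicates 1 and 2 alone 2 were called higher and 0 lower, against 5.17% and 4.25%. The largest changes were those of HSD17B12, a ketoacyl-CoA reductase of elongation (0.24, limma adjusted p of 0.00397 with the block), HSD17B8, of mitochondrial fatty acid synthesis (-0.24, 0.0373), and HACD3, a dehydratase of elongation (0.22, 0.0112). Of 12 genes that supply citrate, acetyl-CoA and NADPH, 2 were called higher and 0 lower with the block, IDH1 (0.22, 0.0108) and PGLS (0.18, 0.0346). Without the block limma called 0, with 2 of the 12 at an unadjusted p under 0.05, against the same 10.8%.

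Of 18 genes of acyl-CoA and glycerolipid synthesis, 5 were called higher and 2 lower with the block, at a median of 0.024. Without it limma called 1 higher and 0 lower, against 0.267% and 0.113% of all genes, and 7 of the 18 had an unadjusted p under 0.05, against 10.8%. ACSL1, which joins fatty acids to coenzyme A, was called also without the block (log2 fold change of 0.61, limma adjusted p of 0.0131 without it and 0.000121 with it), from 22.6, 22.5 and 24.02 FPKM to 35.5, 34.9 and 36.2. LPIN1 was higher (0.34, limma adjusted p of 0.00134 with the block) and ACSL5 lower (-0.30, 0.00194). Of 16 genes of fatty acid oxidation, 2 were called higher and 2 lower with the block, at a median of 0.010. Without it limma called 0, with 3 of the 16 at an unadjusted p under 0.05, against 10.8% of all genes. With the block on replicates 1 and 2 alone 0 were called higher and 2 lower, against 5.17% and 4.25%, and 5 of the 16 had an unadjusted p under 0.05, against 27.6%. On these replicates without the block 2 were called higher and 2 lower, against 5.54% and 4.99%. PPARA, a receptor that activates this pathway, was higher (0.28, limma adjusted p of 0.0263 with the block), and ACADVL (-0.24, 0.00233) and ACADM (-0.20, 0.0280), which start the oxidation of long and medium chains, were lower.

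**Figure D4:**
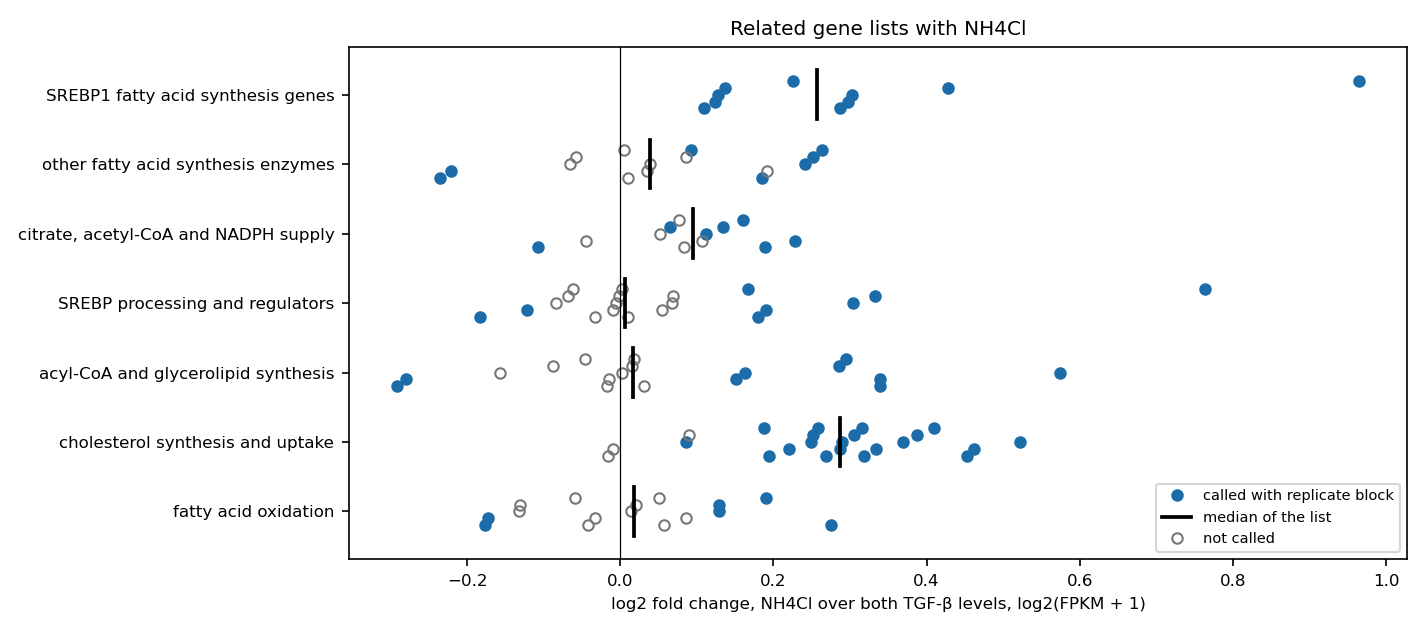
Log2 fold change with NH4Cl over both TGF-β levels on the log2(FPKM + 1) scale (horizontal axis) for each tested gene of the 7 lists (rows), with filled points for genes called with the replicate block and black bars at the list medians. The medians were 0.26 for the 10 fatty acid genes, 0.29 for cholesterol genes and 0.0059 to 0.095 for the other lists.

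Sums of marker lists differed between groups and replicates, in both directions. The summed endothelial list was at 1.72, 1.93 and 4.17 FPKM in control libraries, at 1.88, 1.56 and 4.35 with TGF-β, at 2.70, 2.99 and 5.85 with NH4Cl, and at 2.66, 2.81 and 6.84 with both. VWF made up most of these sums, so they describe 1 gene. The summed hepatocyte list, mostly ALB, was at 1.15, 0.965 and 0.839 FPKM in control libraries and at 0.686, 0.605 and 0.622 with NH4Cl. The summed epithelial list was at 2510.4, 2403 and 3311 FPKM in control libraries and at 2267, 2292 and 2892 with NH4Cl. The part of these in the changes of the 10 genes was not tested.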

How the data were processed

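Expression of 10 genes of fatty acid synthesis was analysed in 12 HCT116 libraries, in 4 groups of 3 taken from the sample labels. The authors deposited FPKM for 25733 genes. Per the submitters' processing notes, which give no order or role, the tools included Trimmomatic 0.36, STAR 2.5.2b, featureCounts, Subread 1.5.2 and DESeq2, with build GRCh38 (hg38), whereas the paper's methods name HTSeq for counting. The labels and the paper name different RNA kits.

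FPKM times exon length (GENCODE release 29, GRCh38; all 25733 identifiers matched) was a whole multiple of 1 step per library for 100.0% of values above 0, within 0.05 of a step, which gave reads per gene. The library total that the scaling implies was 1.02 to 1.03 times the reads on genes in replicates 1 and 2, and 0.964 to 0.969 times in replicate 3. The FPKM of a library summed to 262958 to 278920 in replicates 1 and 2 and to 301728 to 305984 in replicate 3. Replicates 1 and 2 of a group differed by a chi-square of 1.76 to 5.02 per gene, and replicate 3 from either by 25.4 to 36.3, where counting error gives 1.

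Log2(FPKM + 1) of the 12341 genes with a mean of at least 1 FPKM was modelled by limma (version 3.58.1, R 4.3.3), with 4 group means over all 12 libraries, an intensity trend and two-sided tests. P-values were adjusted by Benjamini-Hochberg over all genes tested in each of 7 comparisons, with a threshold of 0.05. The code was tested on simulated data. Deviations from group means correlated between same-numbered libraries in all 18 pairs, at 0.349 to 0.774. The pairing was taken from these correlations, since no source says what a number stands for, and the replicate number was added as a block in another model.

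Alternatives were a pseudocount of 0.1, no filter, a mean of at least 5 FPKM, TPM scaling, median centring, only the groups compared, no intensity trend, the block alone, with TPM scaling or with a log2 fold change of at least 0.5, replicates 1 and 2 only with and without the block, and each library left out with and without it. All 10 genes are described. From each of 6 further lists the 3 genes with the largest change with NH4Cl against control are named, whatever their call, and SREBF2, SCAP and the promoters shown were picked after their values were seen. For SREBF1 and FASN the 5 genes with the highest r are named. Of the genes these rules pick, 1 of the citrate, acetyl-CoA and NADPH list and 1 of those nearest SREBF1 are left out of the text. The 10 genes and the lists were chosen with earlier results of these data known. ELOVL2 and THRSP were not found by name in the table, and ACACB, OLAH, ELOVL3, ELOVL4, HACD4, ACSS1, ACSL6, GPAT3, AGPAT4, CPT1B and ACADL were under the filter. Promoter windows are from RefSeq on GRCh38.p14. Python 3.11.15, pandas 2.3.3, numpy 2.4.6 and matplotlib 3.10.9 were used for the other steps.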

Additional observations from a re-analysis of the deposited data

How the results depend on the processing

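In the 4 comparisons for NH4Cl all 10 genes kept their direction under each alternative run, except for ACACA with NH4Cl and TGF-β. Against control, its log2 fold change of 0.10 became -0.031 without control replicate 3 and -0.0047 without replicate 2 of the group given both. Its highest value was 0.20, without replicate 3 of that group. These fits had no block, and with the block leaving out 1 library gave 0.069 to 0.16. Against TGF-β its log2 fold change was 0.087. In the fits without the block it became -0.030 without TGF-β replicate 3 and -0.019 without replicate 2 of the group given both. In the TGF-β comparisons and the interaction 0 of the 10 genes were called by limma under each alternative run, but directions did not hold. With TGF-β against control 6 genes were above 0, 2 with replicates 1 and 2 only, and 9 with the block and without TGF-β replicate 2. With replicates 1 and 2 only, 1 gene, ACSS2, had an unadjusted p under 0.05 for TGF-β against control (3.47% of all genes) and for the interaction (5.56%), where 0 did with all 12 libraries. With the block on these replicates it did for TGF-β against control (3.76%) and not for the interaction (5.65%). With the block it also did for the interaction without control replicate 3 or TGF-β replicate 3.

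The replicate block changed the count of genes called from 0 to 7 for NH4Cl against control, from 0 to 6 for NH4Cl with TGF-β against control and against TGF-β, and from 4 to 10 over both TGF-β levels. In the same 4 comparisons, in that order, the counts were 1, 1, 1 and 1 (ACSS2) with the block and a log2 fold change of at least 0.5, 6, 6, 6 and 9 with the block and TPM scaling, 5, 5, 5 and 8 with replicates 1 and 2 only, and 6, 6, 6 and 8 with replicates 1 and 2 only and the block. Over all genes the shares called in either direction were 1.33% to 1.73%, 11.9% to 29.1%, 10.5% to 26.8% and 9.42% to 26.1% under these 4 alternatives. With the block, leaving out 1 library gave 5 to 8, 6 to 7, 6 and 7 to 10. Without the block leaving out 1 library gave 0 in each comparison but that over both TGF-β levels. There it gave 1 without TGF-β replicate 1, TGF-β replicate 2 or NH4Cl replicate 2, 2 without control replicate 1, NH4Cl replicate 1 or replicate 2 of the group given both, 3 without control replicate 2, NH4Cl replicate 3, or replicate 1 or 3 of the group given both, and 6 without control replicate 3 or TGF-β replicate 3. The shares of all genes called when 1 library was left out are not given here, so those counts have no background. The cause of the changes in count was not tested. Over both TGF-β levels without the block, TPM scaling called 3 genes, SREBF1, ACSS2 and SCD. Of these ACSS2 was also among the 4 called with FPKM, ACLY, ACSS2, FASN and FADS1. No filter and no intensity trend each called ACLY, FASN and FADS1. In either direction, 3.96% of all genes were called with TPM, 6.14% with FPKM, 2.14% with no filter and 5.98% with no trend.

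Over both TGF-β levels TPM scaling moved the calls over all genes from 462 higher and 296 lower to 367 and 122. For NH4Cl against control median centring moved them from 33 and 14 to 33 and 23. The fit with only the groups compared has no value over both TGF-β levels or for the interaction, which use all 4 groups. With the block on all libraries, ELOVL6, ME1 and ACACA were called only over both TGF-β levels, where their log2 fold changes were 0.11, 0.12 and 0.13. That comparison sets 6 libraries against 6. With 3 against 3 and the block, ME1 (0.14), ELOVL6 (0.16) and ACACA (0.17) were not called for NH4Cl against control, and FADS2 (0.17) was. Counting error was at most 4.01% for these genes.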
